A study of Mus musculus with 3 samples.

Results

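The genes described are 10 histone lysine demethylases, chosen by symbol from a fixed list, out of 55536 mouse genes in the deposited tables. That list was set with earlier results of these data known. They are Kdm1a, Kdm2a, Kdm2b, Kdm3a, Kdm3b, Kdm4a, Kdm4b, Kdm4c, Kdm6b and Kdm7a, and each symbol matched 1 gene. RNA came from the chromatin fraction of bone marrow-derived macrophages (BMDM) of C57BL/6J mice, was depleted of ribosomal RNA and sequenced as total RNA. All cells had received lipid A, the membrane anchor of bacterial lipopolysaccharide that is sensed by Toll-like receptor 4, at 100 ng/ml for 50 min. The 3 libraries, replicates 1, 2 and 3, therefore form 1 group that shares strain, treatment and time, with sex and age not recorded. They carry 1 donor code, so the spread between them may be technical. Cells without lipid A, and RNA outside chromatin, were not analysed here, so no value below measures a response to lipid A.

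Histone lysine methylation marks chromatin for activation or silencing, depending on the residue and on the number of methyl groups. Demethylases remove these groups by one of 2 chemistries. Kdm1a is an amine oxidase that uses flavin and acts on H3K4, whereas the other 9 genes encode Jumonji C domain enzymes that use iron and 2-oxoglutarate. In macrophages, Kdm6b (also called Jmjd3) is known as a lipopolysaccharide-induced H3K27 demethylase. RNA bound to chromatin is rich in transcripts that are still being made or spliced, so annotated transcripts that keep intron sequence matter when these genes are read.

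Replicate 1 was made from 1000 ng of RNA, replicate 2 from 250 ng and replicate 3 from 500 ng, and their expected counts summed to 10496703, 17687379 and 14806118. All 10 macrophage markers were detected, with summed levels of 763, 731 and 760 TPM in replicates 1, 2 and 3. Of 20 markers of T cells, B cells, neutrophils, fibroblasts and erythroid cells, only Cd4 (1.52 TPM) and Alas2 (2.21 TPM) were detected in the gene tables used for the levels below. In a second deposited quantification 9 of the 20 were detected, with Alas2 (4.57 TPM), Ms4a1 (2.63 TPM) and Cd4 (2.48 TPM) highest. In the gene tables the lists summed to between 1.02 and 2.03 TPM for T cells, 0.05 and 0.2 TPM for B cells, and 0.05 and 0.22 TPM for neutrophils. Fibroblast markers summed to between 0.03 and 0.88 TPM and erythroid markers to between 1.16 and 2.87 TPM. Cd3e, Cd3g, Pax5, Ly6g, Pdgfra and Hba-a1 were listed there at 0 TPM in all 3 libraries. Of these, Pdgfra had 0.934 TPM and Cd3g 0.588 TPM in the second quantification.

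All 10 demethylases were detected, meaning at least 10 expected counts in each library, against 43.9% of the 22028 protein-coding genes. Levels are in TPM, which divides counts by transcript length and scales each library to a fixed sum, so genes can be compared with each other. Kdm6b stood far above the rest, with a mean of 157 TPM ± 33.2 (SD, n = 3), and Kdm2b was lowest with 4.73 TPM ± 1.05. The median over the 10 genes was 19.0 TPM ± 2.09 (SD, n = 3 libraries), against 4.82 TPM ± 0.614 over the 9665 detected protein-coding genes. Because the 10 were chosen with earlier results known, full detection and this median describe the list. Of 16 other lysine demethylases, 11 were detected. In such bulk RNA, fewer cells of a type and less RNA per cell cannot be told apart.

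Between Kdm6b and Kdm2b the order by mean was Kdm2a, Kdm3a, Kdm3b, Kdm4a, Kdm4c, Kdm1a, Kdm7a and Kdm4b. Only 3 neighbouring pairs had levels that did not overlap between libraries: Kdm6b over Kdm2a (3.36-fold by the means), Kdm2a over Kdm3a (1.94-fold) and Kdm1a over Kdm7a (2.00-fold). The other neighbours overlapped. Among genes that are not neighbours, the highest Kdm1a library, 17.52 TPM, lay below the lowest of Kdm3a (18.58 TPM), Kdm3b (19.04 TPM) and Kdm4a (17.73 TPM).

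The second quantification gave a mean above the first for each of the 10 genes. Over the detected protein-coding genes the median of mean TPM was also higher there, 9.21 against 4.87 TPM. Of the 10 demethylases, 7 were more than 1.5-fold higher in the second quantification, against 58.1% of detected protein-coding genes. The order of 2 neighbouring pairs, Kdm4a over Kdm4c and Kdm7a over Kdm4b, held in 0 of 3 libraries there.

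**Figure D1:**
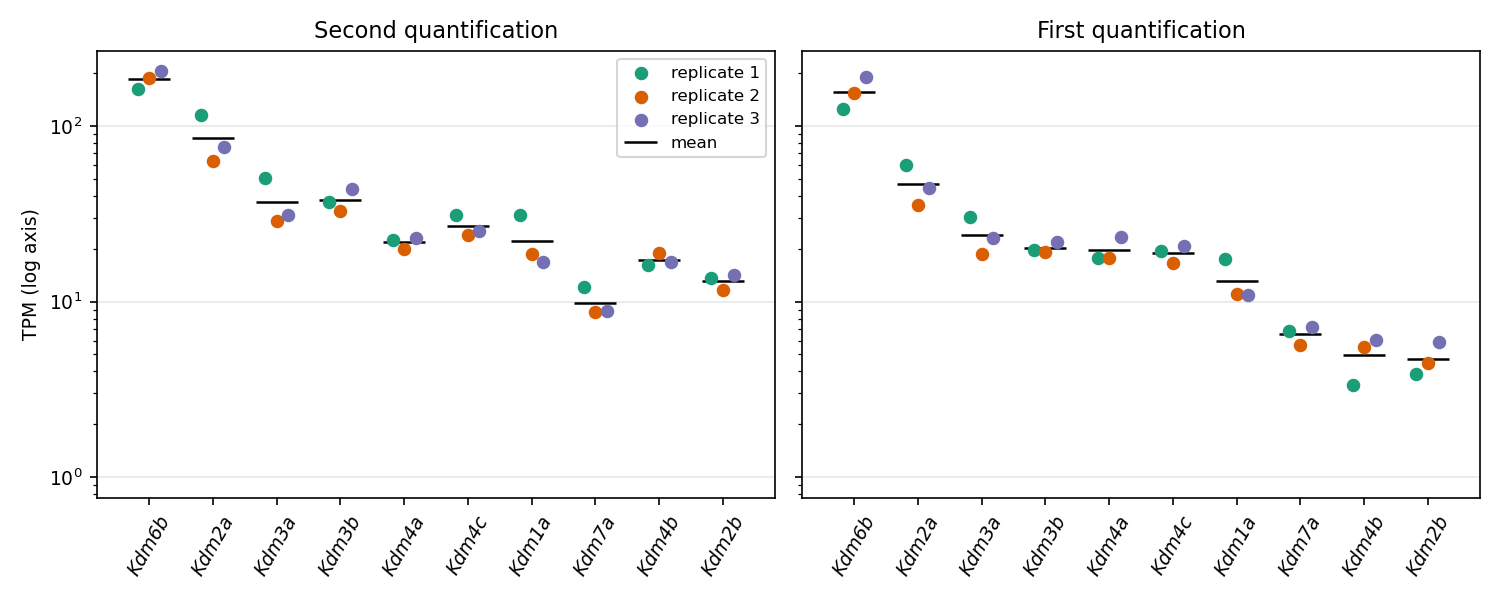
Levels of the 10 demethylases in TPM on a log axis, in the second (left) and the first (right) quantification, with a point for each of the 3 libraries and a bar at the mean. Kdm6b lies between 125 and 191 TPM in the first quantification, above every library value of the other 9 genes.

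Several of these genes drew a large part of their TPM from annotated transcripts that run from an exon into an intron. The 30-base sequences below show where such transcripts leave the splicing pattern of the coding transcript. They are shown because a read over such a border holds intron sequence that the spliced coding transcript lacks, as do reads wholly inside the kept part. A coding transcript not yet spliced would hold the same borders, so they do not single out the annotated form. Each is taken from the GENCODE M21 transcript (GRCm38, minus strand), written 5′ to 3′, with the GT or AG at the intron's edge in capitals. Introns are numbered along the coding transcript that held most counts.
Kdm6b-202, into intron 13, chr11:69403558-69403587: cttcggctcaGTgagtttggggagaaagta
Kdm2a-209, into intron 2, chr19:4394772-4394801: ccagagattgGTtagtattttcaattccct
Kdm2b-212, into intron 22, chr5:122878415-122878444: aacctatcagGTgaggtgggccccagtatc
Kdm3a-211, into intron 6, chr6:71620424-71620453: ctgtgaggagGTaaaagcagtgataactga
Kdm3a-211, out of intron 6, chr6:71620201-71620230: ctttgtcttctttttttaAGattccagcac
Kdm1a-209, into intron 18, chr4:136552441-136552470: agtcccacagGTatgggagggagcgagtgg
Kdm1a-209, out of intron 18, chr4:136552009-136552038: taactcacatttctctgtAGcccaaggaaa
Kdm3a-211 and Kdm1a-209 each hold a whole intron, of 233 and 442 bases, so both of its borders lie inside the transcript. Borders were found in this way in retained-intron and processed transcripts of the members other than Kdm3b, whose sequence was not used here. All 17 on the 5′ side read GT and all 16 on the 3′ side read AG, some of them shared by more than 1 transcript. The introns are those of the annotated coding transcripts, and the same share over all annotated introns was not computed. The tables give no reads by position, so use of these borders was not measured directly.

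Kdm6b (ENSMUSG00000018476.7, chr11:69398508-69413675, minus strand) removes di- and trimethyl groups from H3K27, the mark set by PRC2. Its level was 124.55 TPM in replicate 1, 154.26 TPM in replicate 2 and 190.86 TPM in replicate 3. It ranked 201st by mean among the 9665 detected protein-coding genes, and was the one demethylase of the 10 at 100 TPM or more, a level reached by 3.85% of detected protein-coding genes. Kdm6b alone made up 41.2%, 53.5% and 53.8% of the summed TPM of the 10 genes. It also had the most reads, with 6936, 16010 and 14440 expected counts, so counting error was small beside the spread between libraries. The authors' interval for its TPM, with upper ends of 121, 152 and 184, lay below the deposited TPM in all 3 libraries. The second quantification gave 163, 187 and 205 TPM, a mean 1.18-fold above the first.

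Just 2 transcripts of Kdm6b are annotated. The coding Kdm6b-201, of 6654 bases and 23 exons, took 62.6% ± 2.96 of the gene's TPM (SD, n = 3). The rest, 37.4%, went to Kdm6b-202, a processed transcript of 743 bases with no coding sequence, whose last 300 bases lie in introns of Kdm6b-201. Because Kdm6b-202 is short, its TPM rested on few reads: it held 4.59% of the gene's expected counts. The second quantification gave it 36.3% of TPM. The span of an antisense gene, Kdm6bos, covers 492 exon bases of Kdm6b-201, and the gene was listed at 38.2, 33.5 and 27.8 TPM. Here and below, such a span includes the introns of the overlapping gene, so shared exon sequence was not measured. The strand setting of the counting is not given in the sources used here, so reads from the overlap may be counted for either gene.

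Kdm7a (ENSMUSG00000042599.8, chr6:39136623-39206789, minus strand) acts on dimethylated H3K9 and H3K27. Its levels were 6.79, 5.68 and 7.20 TPM in replicates 1, 2 and 3, a mean of 6.56 TPM ± 0.786. These sit close together, and Kdm7a had the smallest range of the 10 genes, 1.12-fold, in counts scaled by TMM as described below. Scaled by library totals, Kdm4c had the smallest range, 1.05-fold, against 1.15-fold for Kdm7a. Its coding transcript Kdm7a-201 took 63.9% of TPM and the processed Kdm7a-202 took 36.1%, or 14.8% of counts. The span of an antisense gene, 4930599N23Rik, covers 7493 exon bases of Kdm7a. That gene was listed at 1.6, 0.49 and 1.47 TPM, from at most 16.3 counts in a library.

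Kdm2a (ENSMUSG00000054611.17, chr19:4314419-4398285, minus strand) and Kdm2b (ENSMUSG00000029475.17, chr5:122870665-122989823, minus strand) are paralogs that bind unmethylated CpG islands and act on H3K36. Kdm2a was at 59.63, 35.64 and 44.54 TPM in replicates 1, 2 and 3, and Kdm2b at 3.85, 4.45 and 5.90 TPM. The paralogs did not overlap in any library. Kdm2b also brings the variant PRC1.1 complex to CpG islands. The authors' interval for Kdm2b TPM ran from 5.09 to 9.04 in replicate 1, from 4.88 to 8.41 in replicate 2 and from 6.93 to 10.8 in replicate 3. Each lies above the deposited TPM of that library. The span of Rnf34, on the other strand, covers 611 exon bases of Kdm2b. Rnf34 held 126, 100 and 190 counts against 199, 351 and 385 for Kdm2b.

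A retained-intron transcript had the highest mean share of TPM in both paralogs, but in Kdm2b this rested on replicate 1. Kdm2a-209, a transcript of 3207 bases of which 72.4% lie in introns of the coding Kdm2a-202, had the highest share of Kdm2a TPM, 26.3% ± 4.65, and Kdm2a-202 had 12.5% ± 4.69. By counts the order was turned, with 28.0% for Kdm2a-209 and 31.0% for Kdm2a-202. In Kdm2b, the retained-intron Kdm2b-212 took 40.2%, 12.1% and 24.3% of TPM, and the coding Kdm2b-203 took 15.8%, 19.6% and 33.6%. Kdm2b-203 was thus above Kdm2b-212 in replicates 2 and 3, and also by counts, with 30.6% for Kdm2b-203 and 27.7% for Kdm2b-212. All retained-intron forms together made up 64.2%, 51.3% and 57.9% of Kdm2a TPM and 46.2%, 25.4% and 46.9% of Kdm2b TPM. The second quantification spread Kdm2a more widely: Kdm2a-209 had 17.8%, the coding Kdm2a-203 and Kdm2a-208 had 11.9% and 10.4%, and the processed Kdm2a-210 had 10.8%. There, Kdm2b rested on Kdm2b-212 (27.3%), Kdm2b-210 (16.6%), Kdm2b-219 (14.5%) and Kdm2b-209 (10.9%), none of them coding, and its noncoding share was 81.6%, against 46.5% in the first.

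Kdm3a (ENSMUSG00000053470.13, chr6:71588972-71632990, minus strand) and Kdm3b (ENSMUSG00000038773.11, on chromosome 18) remove mono- and dimethyl groups from H3K9. Kdm3a was at 30.20, 18.58 and 23.14 TPM in replicates 1, 2 and 3, a mean of 24.0 TPM ± 5.85. Kdm3b was steadier in TPM, at 19.71, 19.04 and 21.89 TPM, a mean of 20.2 TPM ± 1.49, and the 2 genes overlapped. Transcripts not annotated as protein-coding took 61.5% of Kdm3a TPM and 18.6% of Kdm3b TPM. In the second quantification the shares were 70.7% for Kdm3a and 52.4% for Kdm3b. There the processed Kdm3b-203, of 42 bases, held 34.9% of Kdm3b TPM from 2, 4 and 4 estimated counts. The Kdm3b share was not computed without it, so the shares cannot be called closer.

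The leading Kdm3a transcripts were the coding Kdm3a-202 with 19.9% ± 5.58 of TPM and Kdm3a-201 with 16.5% ± 13.7. In the second quantification the processed Kdm3a-210 led with 18.3%, followed by the retained-intron Kdm3a-212 with 14.0% and Kdm3a-201 with 11.6%. Kdm3a-211, whose borders are printed above, took 12.3%, 5.55% and 5.36% of Kdm3a TPM in the first. Kdm3b was carried by Kdm3b-201 with 66.2% ± 4.60, and Kdm3b-204, also coding, followed with 15.2%. The span of a lincRNA gene on the other strand, Gm26538, covers 128 exon bases of Kdm3b.

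Kdm4a (ENSMUSG00000033326.15, chr4:118136957-118180043, minus strand), Kdm4b (ENSMUSG00000024201.12, chr17:56326062-56402870, plus strand) and Kdm4c (ENSMUSG00000028397.13, chr4:74242497-74405860, plus strand) act on trimethylated H3K9 and H3K36. Kdm4a was at 17.73, 17.77 and 23.44 TPM and Kdm4c at 19.32, 16.62 and 20.71 TPM. Those 2 genes could not be ordered, since their libraries overlap. Kdm4b lay below both in every library, at 3.35, 5.53 and 6.01 TPM in replicates 1, 2 and 3.

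The 3 Kdm4 genes differed in their transcripts. Kdm4c-201, coding, held 81.9% ± 3.91 of Kdm4c TPM, and the processed Kdm4c-203 held 9.48%; in the second quantification Kdm4c-203 and the processed Kdm4c-205 had 17.0% and 11.3%. For Kdm4a the processed Kdm4a-206, of 801 bases, had 39.6% ± 2.50 and the coding Kdm4a-204 had 36.6% ± 9.45. This order rested on replicate 3, with 42.3% for Kdm4a-206 and 25.7% for Kdm4a-204. In replicates 1 and 2 Kdm4a-204 was higher, with 41.2% and 42.8% against 37.4% and 39.0%. It was also higher in the second quantification, 38.3% against 34.8%. By counts Kdm4a-206 had 8.55% and Kdm4a-204 had 61.2%. Kdm4b had 100% of its TPM in coding transcripts in the first quantification, with 72.4% in Kdm4b-201 and 19.4% in Kdm4b-204.

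The level of Kdm4b was the least certain of the 10. The authors' interval for its TPM ran from 2.95 to 108 in replicate 1, from 5.04 to 71.4 in replicate 2 and from 5.40 to 118 in replicate 3. For the other 9 genes the upper end was at most 1.78 times the lower. The confidence level of these intervals is not given in the sources used here. The second quantification put Kdm4b at 17.2 TPM, against 4.96 TPM in the first, a 3.47-fold gap.

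A transcript of 130 bases, Kdm4b-206, took 57.8% of Kdm4b TPM in the second quantification from 3, 7 and 5 estimated counts, and was at 0 in the first. Kdm3b-203, of 42 bases, took 34.9% of Kdm3b TPM there from 2, 4 and 4 counts. With transcripts under 200 bases left out, a choice made after seeing the data, Kdm4b stood at 7.30 TPM and Kdm3b at 24.4 TPM in the second quantification. The count of genes more than 1.5-fold higher there was then 5 of 10: Kdm2b, Kdm2a, Kdm1a, Kdm3a and, just past the limit, Kdm7a. The share of all detected protein-coding genes was not computed under this rule.

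Kdm1a (ENSMUSG00000036940.15, chr4:136550540-136602723, minus strand), also called LSD1, removes mono- and dimethyl groups from H3K4 within the CoREST complex. Its levels were 17.52, 11.02 and 10.83 TPM in replicates 1, 2 and 3, a mean of 13.1 TPM ± 3.81, with replicate 1 apart from the other 2. Retained-intron transcripts made up 77.9%, 67.6% and 61.6% of its TPM and 41.8% of its counts. By mean TPM share this was the highest of the 10 genes, but by counts Kdm2a was higher (44.0%), and in the second quantification Kdm2b had 57.5% and Kdm1a 47.0%. Kdm1a-205 led with 19.9% ± 7.05, followed by Kdm1a-206 with 18.2% ± 2.95, and both are annotated as retained introns. Kdm1a-209, which holds the whole of intron 18, had 16.4%.

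The coding transcript with most counts, Kdm1a-202, had 13.0% of TPM in the first quantification and led the second with 22.0%. The coding Kdm1a-208 had 14.3% in the second, and Kdm1a-206, Kdm1a-205 and Kdm1a-209 had 17.0%, 10.6% and 10.3%. Kdm1a rested on 246, 344 and 255 counts, fewer than the 462, 488 and 409 of Luzp1, a gene on the other strand. The span of Luzp1 covers 1068 exon bases of Kdm1a.

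**Figure D2:**
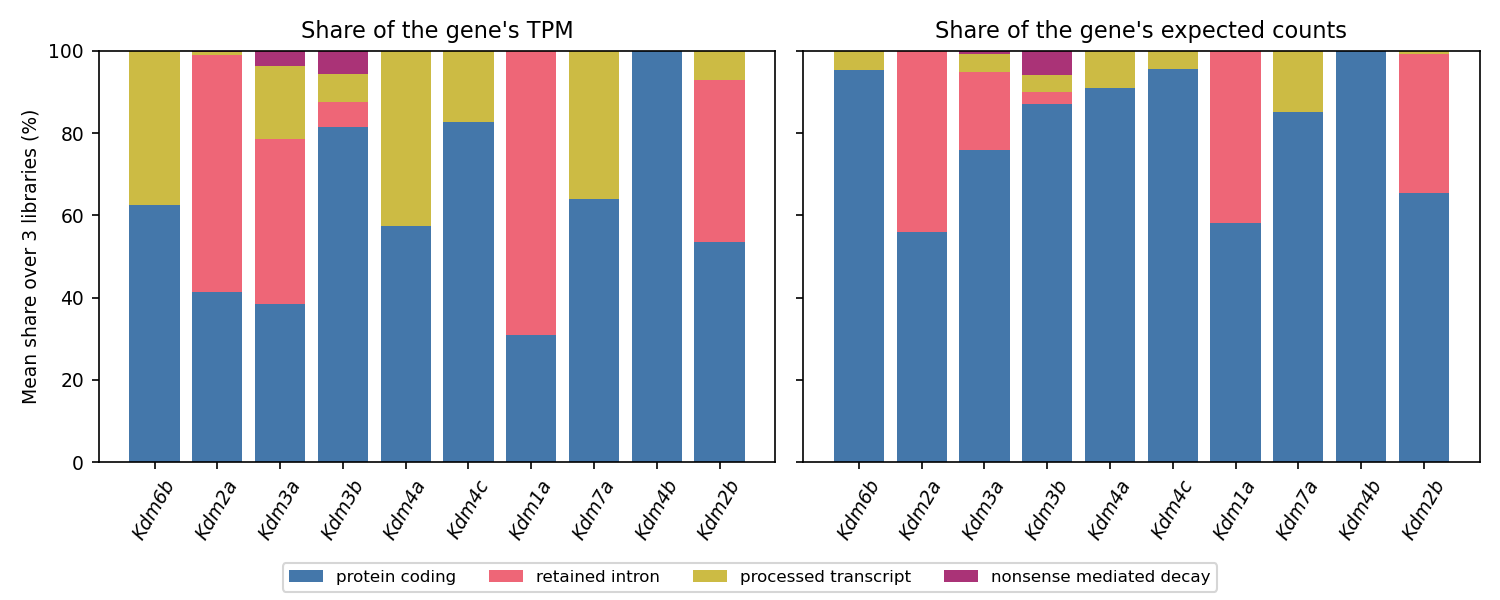
Share of each demethylase's TPM and of its expected counts, in percent, that fell to transcripts annotated as protein-coding, retained intron, processed transcript or nonsense-mediated decay, as means over the 3 libraries. Retained-intron transcripts reach 68.9% of TPM in Kdm1a, and 41.8% of its counts.

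**Figure D3:**
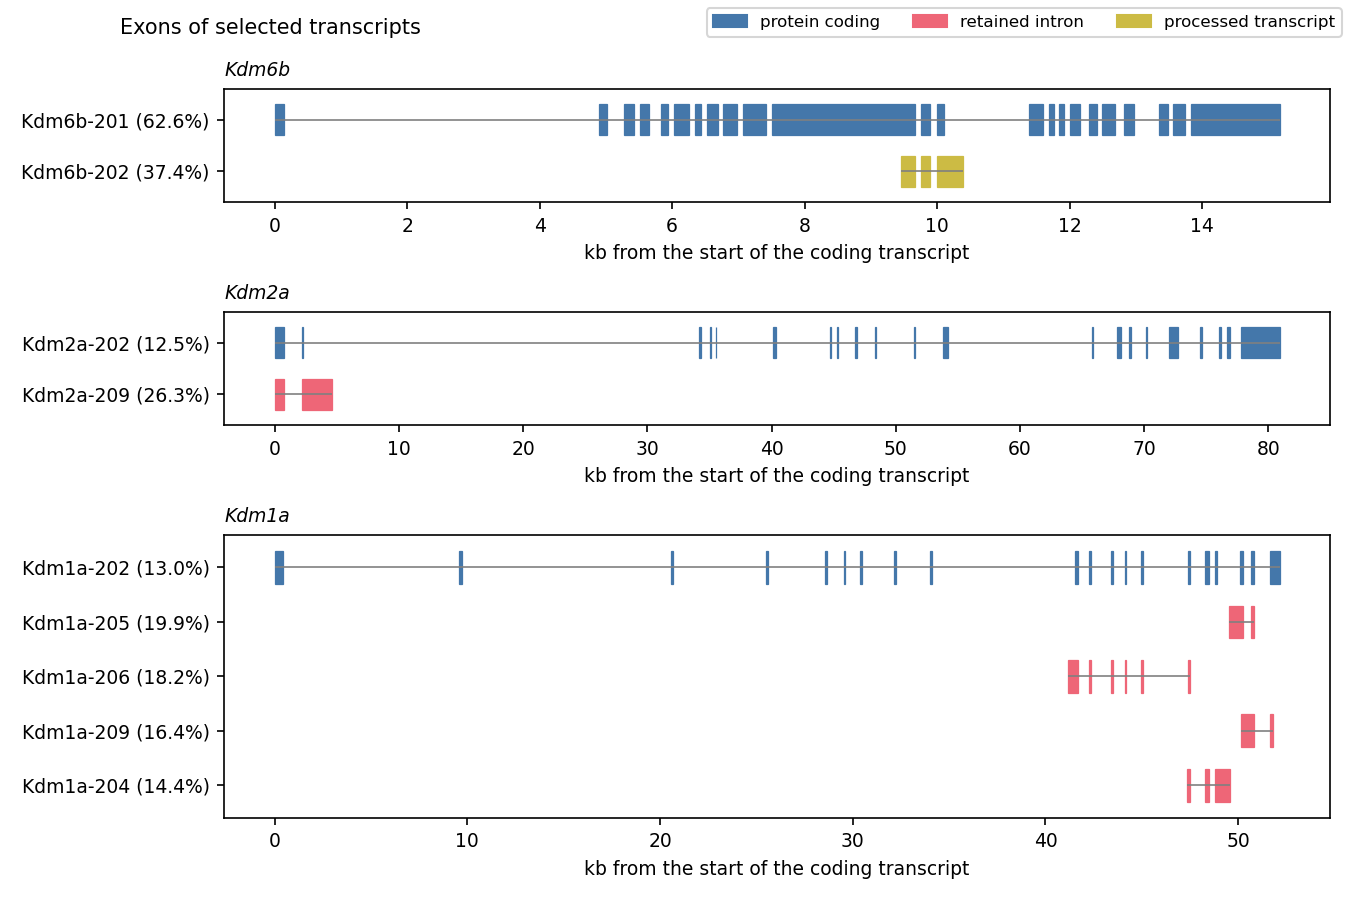
Exons of the coding transcript and of the leading noncoding transcripts of Kdm6b, Kdm2a and Kdm1a, drawn to scale in kb from the start of the coding transcript, with each transcript's mean share of the gene's TPM. The processed Kdm6b-202 and the retained-intron transcripts extend into introns of the coding transcript.

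Pooled over the 10 genes, transcripts not annotated as protein-coding made up 46.5%, 40.1% and 38.0% of TPM in replicates 1, 2 and 3, a mean of 41.5% ± 4.41. Over all detected protein-coding genes the same share was 53.6%, 48.7% and 48.0%. Both were highest in replicate 1. More than 50% of TPM went to such transcripts in 3 of the 10 genes, Kdm1a, Kdm3a and Kdm2a, against 39.1% of detected protein-coding genes. In the second quantification it was 5 of 10, Kdm2b, Kdm3a, Kdm4b, Kdm2a and Kdm3b, against 49.3%, and Kdm1a had 47.0%. Kdm4b and Kdm3b were among the 5 with 57.8% and 34.9% of their TPM in Kdm4b-206 and Kdm3b-203. Those short transcripts had at most 7 estimated counts in a library, and the 5 were not recounted without them. By expected counts the pooled share of the 10 genes was 12.5%, since short transcripts weigh more in TPM. By mean TPM share a coding transcript led in 6 of the 10 genes, and by counts in all 10. In at least 2 of 3 libraries a coding transcript led in 8, since Kdm2b and Kdm4a had a coding leader in 2 libraries each. The second quantification had the same leading transcript for 6 of the 10. Leading transcripts were not counted over all detected protein-coding genes, so these counts describe the 10 genes only.

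Differences between libraries were read from CPM, the counts set to a common depth, after TMM scaling, which does not divide by transcript length. With 1 group there is no test, and each library stands alone. Kdm4b had 13.5, 30.9 and 25.5 CPM, with 95% counting intervals of 11.5 to 15.7, 28.2 to 33.7 and 22.9 to 28.3. Its range was 2.29-fold, and it was the one demethylase of 10 that reached 2-fold, against 15.0% of detected protein-coding genes. Scaled by library totals its range was 1.85-fold, and without replicate 1 or without replicate 2 no demethylase reached 2-fold.

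Kdm6b had the next largest range, 1.80-fold, with 576, 975 and 1039 CPM in replicates 1, 2 and 3. Kdm2b followed with 16.6, 21.4 and 27.7 CPM, a 1.67-fold range, and Kdm4a with 49.6, 76.1 and 77.9 CPM, a 1.57-fold range. In each of these genes replicate 1 was lowest. Kdm3b had 102, 150 and 140 CPM and Kdm4c 69.7, 90.1 and 88.9 CPM, again with replicate 1 lowest.

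Under TMM the remaining genes were level, within 1.22-fold. Kdm2a had 178, 152 and 164 CPM, Kdm3a 60.7, 73.9 and 67.4 CPM, Kdm1a 20.5, 20.98 and 18.4 CPM, and Kdm7a 55.2, 59.2 and 61.8 CPM. Scaled by library totals, Kdm2a had a 1.44-fold and Kdm1a a 1.36-fold range, while Kdm3a and Kdm7a stayed within 1.22-fold. Kdm6b then had 1.48-fold, Kdm2b 1.37-fold, Kdm4a 1.29-fold, Kdm3b 1.19-fold and Kdm4c 1.05-fold. Which genes were level thus depended on the scaling. In TPM, Kdm1a, Kdm2a and Kdm3a were highest in replicate 1. In TMM-scaled CPM Kdm2a was the one gene of the 10 that was, against 35.4% of detected protein-coding genes. Scaled by library totals, 4 of the 10 were, Kdm1a, Kdm2a, Kdm3a and Kdm7a, against 56.3%. For Kdm1a, Kdm2a and Kdm3a the share of retained-intron transcripts was also highest in replicate 1, and its part in the TPM values was not tested. All protein-coding genes together held 22.4%, 16.4% and 20.4% of the TPM of mouse genes in replicates 1, 2 and 3. The part of this share in the TPM values was not tested either.

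In all, 8 of the 10 genes were lowest in replicate 1, against 46.2% of detected protein-coding genes. The exceptions were Kdm1a and Kdm2a, the 2 genes above their own mean in replicate 1, against 44.6% of detected protein-coding genes. Scaled by library totals the count was 6, against 27.3%; the median deviation of all detected protein-coding genes in replicate 1 is then 0.15 log2, where TMM gives -0.05. The second quantification also gave 6, against 47.1%, and DESeq2 size factors gave 8, against 47.1%. Kdm3a and Kdm7a were the genes that dropped out in both cases. The median deviation of the 10 genes in replicate 1 was -0.29 log2 under TMM and -0.09 by library totals, in both cases below that of all detected protein-coding genes. Replicate 1 also had the most input RNA, the lowest total count and the largest share of counts outside mouse genes, 1.28%. The part of these in its lower levels was not tested.

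**Figure D4:**
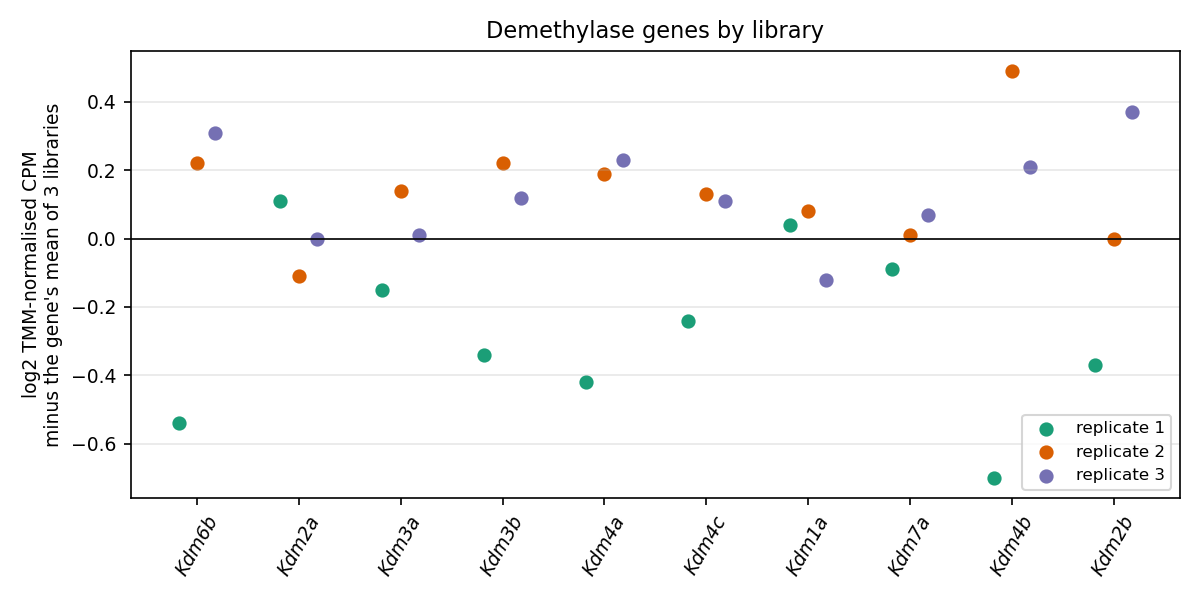
Log2 deviation of each demethylase from its own mean over the 3 libraries, in TMM-scaled CPM. Replicate 1 is lowest for 8 of the 10 genes, and Kdm4b reaches -0.70 there.

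The list was set beside 16 other genes of known or proposed lysine demethylases, of which 11 were detected. The 10 genes had a median of 19.0 TPM ± 2.09, against 2.47 TPM ± 0.0506 for the other 16 (SD, n = 3 libraries). On the scale of log2(TPM + 0.1) the medians differed by 2.90, and by 3.01, 2.73 and 3.05 in replicates 1, 2 and 3. Members were chosen with results known, so this describes the list. With undetected genes left out the difference was 1.71.

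A few of the other demethylases reached the level of the 10. Jmjd1c, a Kdm3a relative, was at 201 TPM ± 23.2 and had a higher mean than Kdm6b. Its libraries, at 176 TPM or more, overlapped those of Kdm6b. The H3K4 demethylases Kdm5c and Kdm5a had 33.2 TPM ± 2.75 and 29.0 TPM ± 3.16. Kdm5d and Uty, the Y-linked members, were listed at 0 TPM in all 3 libraries, but at 5.28 TPM and 4.09 TPM in the second quantification. Both have related X-linked copies, Kdm5c and Kdm6a, and how shared reads were split between copies was not tested.

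Lysine methyltransferases, which carry out the opposite reaction, were all detected, 28 of 28. The 10 demethylases had a median of 19.0 TPM ± 2.09, against 15.7 TPM ± 3.33 for the methyltransferases. The difference of medians was 0.24 log2, and 0.03, 0.53 and 0.35 in replicates 1, 2 and 3. In the second quantification it was -0.37, so no order of the lists holds in both. Dot1l, the H3K79 methyltransferase, was highest at 140 TPM ± 39.3, followed by Kmt2c with 53.9 TPM ± 5.38 and Kmt2d with 49.0 TPM ± 12.5, which set H3K4 methylation at enhancers. Setd1b, with 3.95 TPM ± 1.04, and Suv39h1, an H3K9 methyltransferase with 0.913 TPM ± 0.0850, were lowest.

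**Figure D5:**
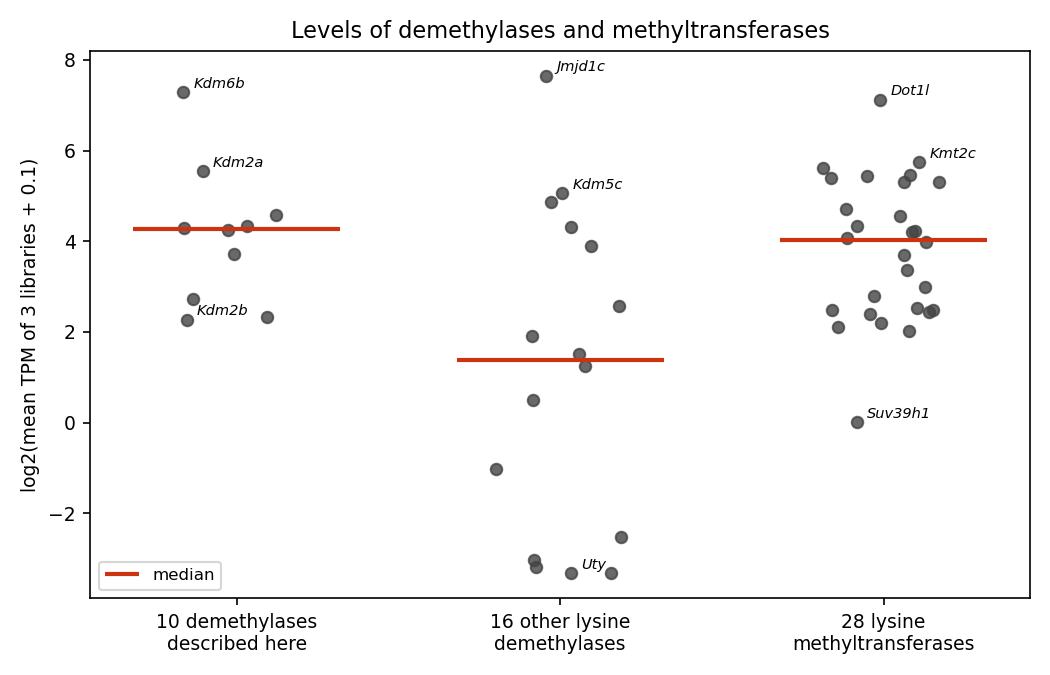
Level, as log2(mean TPM over the 3 libraries + 0.1), of each of the 10 demethylases, the other lysine demethylases and the lysine methyltransferases, with a line at each median. Kdm6b at 157 TPM, Jmjd1c at 201 TPM and Dot1l at 140 TPM stand at the top of their lists.

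Partners of the demethylases were also measured. All 11 genes of the LSD1-CoREST list, the partners of Kdm1a, were detected, between 49.3 TPM ± 21.5 for Phf21a, which reads unmethylated H3K4, and 1.11 TPM ± 0.249 for the corepressor gene Rcor2. Kdm1a lay within that span. Of the 9 PRC1.1 genes, 7 were detected. Levels over all 9 ran from 64.0 TPM ± 17.0 for the deubiquitinase gene Usp7 to 0.280 TPM ± 0.135 for Yaf2. Yaf2 was not detected, and the lowest detected gene was Bcorl1 with 1.33 TPM ± 0.226. Kdm2b at 4.73 TPM lay between Bcorl1 and Usp7. Spans as wide as these do not show matched levels of partners. PRC2, which sets the mark removed by Kdm6b, had all 11 genes detected. Its highest gene, Aebp2 with 68.8 TPM ± 22.3, and its lowest, Phf19 with 2.43 TPM ± 0.413, are accessory subunits and both lay below Kdm6b in every library.

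The pattern over the 3 libraries was compared between the 2 genes with the largest range, Kdm4b and Kdm6b, and 75 detected genes of these lists. Likeness was the Euclidean distance between the 3 log2 deviations. Nearest to Kdm4b were Kdm5b (0.085), Zmym3 (0.097) and Dot1l (0.112). Gse1 (0.045), Setdb1 (0.054) and Kmt2a (0.059) were nearest to Kdm6b. These distances only order the candidates, since 3 libraries of 1 group are compared.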

How the data were processed

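The deposited gene tables give expected counts, which need not be whole, and TPM with its interval, as the authors computed them (per the file headers). A second deposited transcript table gives estimated counts and TPM, summed here per gene. The build was mm10 with GENCODE M21, per the deposited notes; aligner, counter and strand setting are not given in the sources used here. Rows naming no gene held 0.383% to 1.28% of counts and were left out. Intervals cover counting error only, since no molecular identifiers are given.

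Expected counts were rounded to whole numbers and scaled by TMM in edgeR 4.0.16 (R 4.3.3), with 0.5 counts added before log2. Detection needed 10 expected counts in each library. The scaling code was tested on simulated data drawn from a shared mean profile, with some genes raised. That run cannot decide between TMM and library totals. Alternatives were DESeq2 1.42.0 size factors, library totals, other filters and pseudocounts, the second quantification and leaving out each library. Lists were compared as medians of log2(TPM + 0.1). No test was made, since there is 1 group. The members and lists were chosen with earlier results of these data known. The text names each member with its leading transcripts and any above 10% in the second quantification, the 3 highest and 2 lowest genes of each list of enzymes, the extremes of each complex, and the 3 genes nearest in pattern to the 2 most variable members. Transcripts and genes overlapping a member were named after their values were seen.
The levels of some single cell type markers are not reported here.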

Additional observations from a re-analysis of the deposited data

How the results depend on the processing

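All 10 demethylases stayed detected at every filter tried and in both quantifications. Their median of 19.0 TPM was 25.7 in the second quantification, 24.5 there without transcripts under 200 bases (added after seeing the data), and 97.4 when TPM was rescaled to protein-coding genes. Leaving out 1 library gave 17.9 to 19.9. The count with a 2-fold range, 1, was 0 with library totals and 0 to 1 when a library was left out. The log2 difference from the other demethylases, 2.90, was 2.53 with a pseudocount of 1, 1.71 among detected genes and 2.37 in the second quantification, and 2.84 to 2.98 without 1 library. That from the methyltransferases, 0.24, turned to -0.37 in the second quantification and was 0.18 to 0.36 without 1 library. The cause was not tested. The noncoding share of TPM, 41.5%, was 46.8% in the second quantification, 12.5% by counts and 39.0% to 43.3% without 1 library. No paired analysis was possible because there is 1 group. Depth limits Kdm4b, Kdm2b and Kdm1a most, with 162 to 507 counts a library.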
